A study of Saccharomyces cerevisiae with 79 samples.

Results

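OM14 (YBR230C), MRPL44 (YMR225C), RIM1 (YCR028C-A) and CQD1 (YPL109C) are nuclear genes of Saccharomyces cerevisiae whose products work in the membranes of mitochondria or in the upkeep and expression of their genome. They were picked by name from the 297 genes, with 308 targeted introns, of a splicing time course, which gives 4 genes with 1 intron each. RIM1 was set against the other genes because its unspliced reads in the wild type were mostly lariat intermediate, so its level in WT is a description here and was not tested. Unspliced, lariat intermediate and total reads of the 4 introns were followed over labelling time in the series WT, prp2-1 and WT_30.

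Cells growing in synthetic medium (CSM) were fed 4-thiouracil, which new transcripts take up in place of uracil, collected on filters over time and frozen, and labelled RNA was pulled down through biotin. Multiplexed primer extension sequencing (MPE-seq) then read each target from a primer downstream of its intron, so that a read shows whether the intron is still in place. WT is the strain BY4741 with 3 time courses of 10 libraries, at nominal times of 0, 90, 120, 150, 210, 300, 390, 540, 720 and 990 s. The mutant strain, prp2-1, has an altered PRP2 gene, and a time could be tied to 11 of its libraries, of which 10 form 1 course from 0 to 1320 s and 1 is the 0 s library of course 2. Another 18 prp2-1 libraries have no assigned time and appear only as ranges. WT_30 is also BY4741, with 2 courses of 10 libraries up to 3600 s; the labels set it apart by its times and by its spike-in, which was labelled total Schizosaccharomyces pombe RNA in place of the RNAs transcribed in vitro that WT and prp2-1 received. The labels give no growth temperature for any series, and PRP2 is not among the targets, so the mutant label was not checked. Every library holds labelled RNA except those at 0 s, which show what the pull-down carries over.

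Intron removal takes 2 chemical steps. In the first the branch point adenosine attacks the 5′ splice site, which frees the upstream exon and leaves the intron as a lariat still joined to the downstream exon, the lariat intermediate. In the second the exons are joined and the lariat leaves. Prp2 is an ATPase that remodels the spliceosome to make it ready for the first of these steps. Most yeast genes have no intron, and the nuclear genes of mitochondrial proteins that do have one are a small minority among intron-containing genes, where ribosomal protein genes are the largest class. RIM1 encodes the single-stranded DNA-binding protein of mitochondrial DNA replication. MRPL44 encodes a protein of the large subunit of the mitochondrial ribosome. OM14 is an abundant outer membrane protein, and CQD1 is a UbiB family protein of the inner membrane linked to the distribution of coenzyme Q.

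The introns are printed from the R64 genome of RefSeq, 5′ to 3′ on the strand of the gene, because RIM1 differs from the others in length and base composition and CQD1 and OM14 in their splicing signals. Capitals mark the first 6 bases (5′ splice site), the best match to the branch motif TACTAAC and the last 3 bases (3′ splice site).
OM14: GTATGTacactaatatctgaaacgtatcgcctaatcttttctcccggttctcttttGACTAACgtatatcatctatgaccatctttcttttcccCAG
MRPL44: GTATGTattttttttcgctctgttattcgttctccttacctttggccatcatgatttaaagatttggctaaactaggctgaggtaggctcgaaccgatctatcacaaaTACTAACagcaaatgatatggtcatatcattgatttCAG
RIM1: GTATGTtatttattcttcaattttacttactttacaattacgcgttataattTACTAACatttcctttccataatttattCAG
CQD1: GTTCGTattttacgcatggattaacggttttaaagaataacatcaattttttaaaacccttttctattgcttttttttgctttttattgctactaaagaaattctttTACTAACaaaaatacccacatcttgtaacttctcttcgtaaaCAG
All 4 genes lie on the minus strand. The OM14 intron is chrII:679943-680039 and has 97 bases, that of RIM1 is chrIII:173116-173198 and has 83, that of MRPL44 is chrXIII:721199-721345 and has 147, and that of CQD1 is chrXVI:345445-345596 and has 152. Each is an intron between annotated exons, and no other annotated gene overlaps it. The upstream exon measures 11 bases in OM14, 58 in MRPL44, 242 in RIM1 and 1793 in CQD1.

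Features could be read for 258 introns that are the only annotated intron and target of their gene. RIM1 has one of the shorter introns (34 of the 258 are shorter, and the median is 147 bases) and is poor in G and C, at 22.9% against a median of 33.7%; 1 intron is lower. Its branch point adenosine lies 25 bases from the intron's end, against a median of 35 over the 214 introns with TACTAAC. OM14, MRPL44 and CQD1 have 35, 33 and 39 bases there. Their G and C content is 38.1%, 36.7% and 27.6%, so CQD1 is low as well, with 20 introns lower. The motif TACTAAC was searched on the gene's strand alone and stands in 214 of 258 introns (82.9%), RIM1, MRPL44 and CQD1 among them. OM14 has GACTAAC as its best match, which is T1G counted from 1 at the motif's 5′ end, and 12 introns (4.65%) have that form. The 5′ splice site GTATGT begins 186 introns (72.1%), those of OM14, MRPL44 and RIM1 included. CQD1 begins with GTTCGT, which is A3T and T4C counted from the first intron base, a form shared by 2 introns in all (0.775%). All 4 end in CAG, as do 113 introns (43.8%). These letters are a description of the introns, and their part in the values that follow was not tested.

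Depth over yeast targets was 929102 to 8128750 reads in labelled WT libraries, 320553 to 4430240 in those of the prp2-1 course and 4128290 to 11603200 in those of WT_30. The 0 s libraries held 405118 to 1172940 reads in WT, only 31751 and 37533 in prp2-1, and 5331290 and 6238540 in WT_30. Yeast reads per spike-in read were 87.0 to 6919 in labelled WT libraries and 4.70 to 427 in those of the prp2-1 course. Whether reads were counted by molecular identifiers is not given in the sources used here, so the 95% Wilson intervals given for single courses cover counting error alone. The labels do not say whether each course was a culture of its own, so the spread behind the p-values may be technical.

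RIM1 carried nearly all its unspliced reads as lariat intermediate. Summed over 150 to 990 s, the lariat intermediate made up 91.9%, 93.0% and 91.7% of unspliced RIM1 reads in WT courses 1, 2 and 3 (92.2% ± 0.692, SD, n = 3). In single labelled libraries the share ran from 87.3% to 97.7% with a median of 91.9% (n = 27), so every library of every labelling time showed it. In OM14 the share was 38.1%, 46.0% and 42.8% (42.3% ± 4.00), and in CQD1 44.4%, 41.9% and 24.9% (37.1% ± 10.6). In MRPL44 it was 0.762%, 0.723% and 1.24% (0.909% ± 0.288). The courses of RIM1 lie far above those of the other genes and those of MRPL44 far below, while OM14 and CQD1 overlap.

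Among 259 introns with enough reads, RIM1 ranked 1 from the highest lariat share, OM14 51, CQD1 62 and MRPL44 251, around a median intron of 18.4%. With the 3 courses pooled, RIM1 stood at 92.2%, and the next highest was RPS7A with 87.6%. The share of RNA that had not passed the first step gave another order. Unspliced reads other than lariat intermediate were 2.28% ± 0.261 of all RIM1 reads, 4.19% ± 0.412 in OM14, 4.88% ± 0.358 in MRPL44 and 8.18% ± 1.48 in CQD1 (SD, n = 3). RIM1, the highest of the 4 genes in its unspliced share, was the lowest in this class, and its courses (2.06% to 2.57%) lie under all those of OM14.

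**Figure D1:**
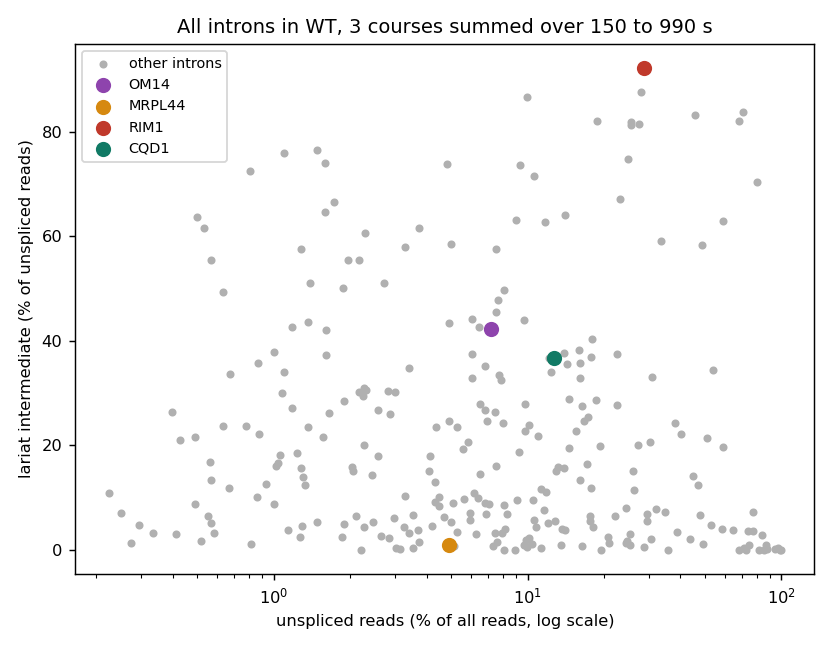
Lariat intermediate share of unspliced reads against the unspliced share of all reads (log scale) for 284 introns in WT, the 3 courses summed over 150 to 990 s; each point is an intron with at least 100 unspliced reads. RIM1 sits at the top at 92.2%, OM14 and CQD1 lie in the middle, and MRPL44 lies near 0.

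Reads that end past the branch point but short of the 3′ splice site belong to neither form with certainty. Without them the lariat share was 93.8% in RIM1 and 46.9% in OM14, and in the authors' estimated counts, which share these reads out, it was 93.8% and 46.9% too. CQD1 moved more, from 37.1% to 51.5% without them and 51.6% in the authors' estimates, and these reads made up 23.2% to 38.3% of its unspliced reads in the 3 courses. MRPL44 stayed near the floor, at 1.14% and 1.18%.

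The lariat share was then followed over labelling time. RIM1 had 91.0%, 92.6% and 93.0% in the early window (150, 210 and 300 s) of courses 1, 2 and 3, and 94.8%, 92.9% and 90.1% in the late window (540, 720 and 990 s). The windows overlap. OM14 had 38.9%, 42.6% and 48.0% early and 38.0%, 47.0% and 38.0% late, and CQD1 51.5%, 48.3% and 28.7% early and 37.8%, 34.1% and 24.4% late. The change in lariat against other unspliced reads was tested with edgeR (quasi-likelihood, Benjamini-Hochberg over 248 introns). MRPL44 had too few lariat reads for this test, so 3 of the 4 genes were tested. The log2 change was 0.10 ± 0.30 (SE) in RIM1 (adjusted p = 0.864), -0.13 ± 0.27 in OM14 (adjusted p = 0.793) and -0.66 ± 0.47 in CQD1 (adjusted p = 0.472). Of these 3 genes 0 passed, against 0% of all introns (0 of 248, 39 at an unadjusted p under 0.05, 3 by DESeq2), and with the course as a block 44 introns passed while the adjusted p was 0.825 in RIM1, 0.713 in OM14 and 0.225 in CQD1. A p that misses the threshold does not show that the shares are equal.

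**Figure D2:**
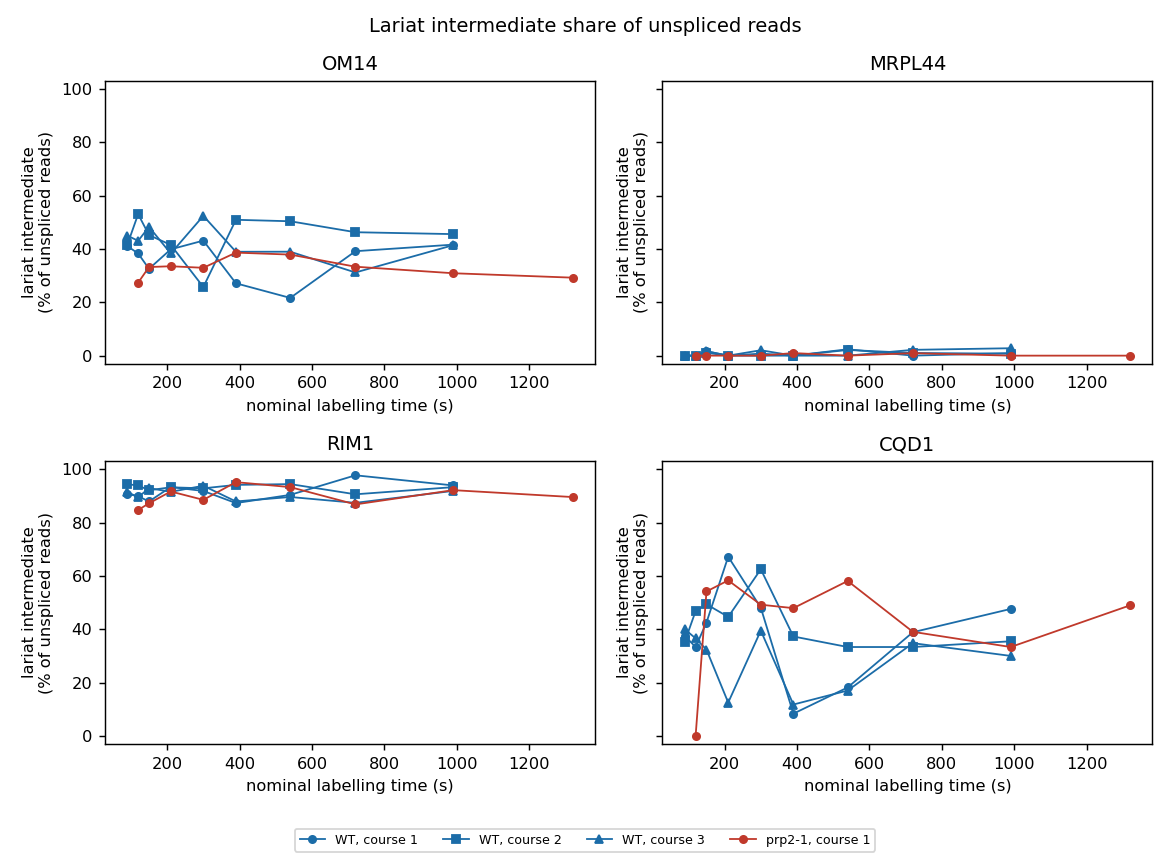
Lariat intermediate as a percentage of unspliced reads (y axis) by nominal labelling time (x axis, s) in the 3 WT courses and the prp2-1 course; each point is 1 library, lines join a course. RIM1 stays between 84.7% and 97.7% in every labelled library shown, and MRPL44 does not exceed 2.78%.

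The prp2-1 course gave RIM1 a lariat share of 91.1% (95% interval 89.5% to 92.5%), which lies just under the WT courses, at 91.7% to 93.0%. By rank RIM1 was again 1, of 244 introns, and in the early window alone 2 of 217. OM14 had 34.2% (33.6% to 34.7%), below all 3 WT courses, CQD1 49.6% (44.4% to 54.8%), above all 3, and MRPL44 0.259% (0.0882% to 0.760%), with an interval that reaches the WT courses. With 1 course in the mutant, edgeR's test assumes that it varies like the WT courses. None of the other 3 genes passed, against 4.6% of 261 introns called in either direction (3.45% lower and 1.15% higher). The log2 change of the lariat to other unspliced reads was -0.21 ± 0.45 (SE) in RIM1, given without a test because its WT level chose it, -0.50 ± 0.45 in OM14 (adjusted p = 0.606), 0.76 ± 0.55 in CQD1 (adjusted p = 0.487) and -1.80 ± 0.87 in MRPL44 (adjusted p = 0.262). The median over all introns was -0.30. In the 18 prp2-1 libraries without an assigned time the RIM1 share had a median of 91.1% and ran from 50% to 96.2%, and that of OM14 a median of 38.8%.

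The unspliced share of each gene's own reads declined in all 4 genes as labelling went on in WT. At 90 s, 61.8%, 63.2% and 60.7% of RIM1 reads were unspliced in courses 1, 2 and 3, and at 990 s 23.0%, 21.9% and 20.2%. CQD1 went from 63.2%, 37.8% and 56.3% to 8.88%, 7.35% and 6.37% over the same times. OM14 went from 26.8%, 20.4% and 19.2% to 4.24%, 4.79% and 2.89%, and MRPL44 from 18.4%, 21.3% and 9.75% to 2.50%, 3.18% and 4.21%. Within each gene every 90 s library lay above every 990 s library. The median intron stood at 17.6% ± 1.16 at 90 s and 3.51% ± 0.593 at 990 s (SD, n = 3).

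At 0 s the background also differed between the genes. It held 57, 163 and 223 RIM1 reads in courses 1, 2 and 3, of which 8.77%, 9.20% and 10.3% were unspliced. CQD1 had 8 to 14 reads at 0 s, too few for a share. In OM14 4.48%, 7.98% and 4.68% of 715 to 1432 reads were unspliced, and in MRPL44 0%, 2.51% and 6.13% of 83 to 279. For RIM1 every labelled library but 1 exceeded the 0 s shares; the lowest, course 1 at 390 s with 9.82%, lay below course 3 at 0 s.

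**Figure D3:**
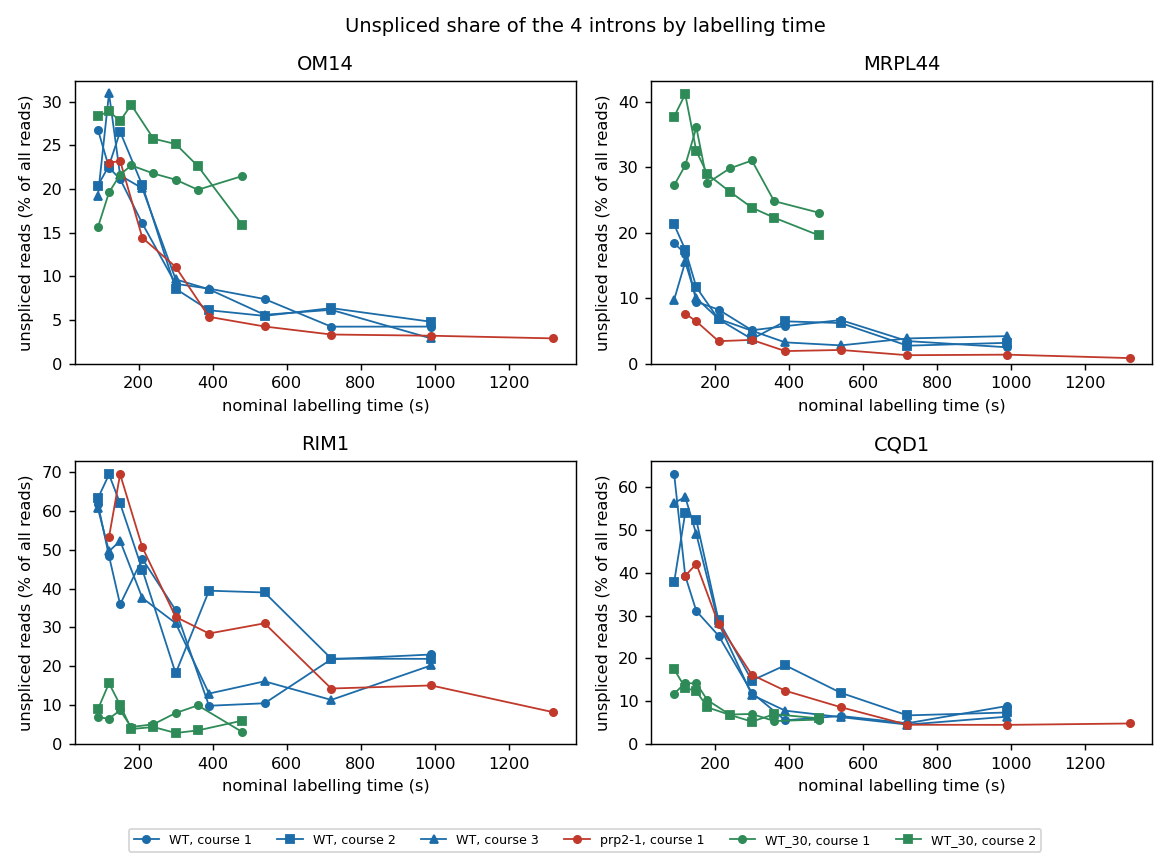
Unspliced reads as a percentage of all reads of each gene (y axis) by nominal labelling time (x axis, s) in 3 WT courses, 1 prp2-1 course and 2 WT_30 courses; each point is 1 library, and the 0 s and 3600 s libraries are left out. RIM1 starts near 60% in WT and stays under 16% in WT_30, while MRPL44 is higher in WT_30 than in WT at every shared time.

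From the early to the late window the RIM1 share went from 39.0%, 51.4% and 41.1% in courses 1, 2 and 3 to 19.3%, 25.5% and 16.1% (43.8% ± 6.67 to 20.3% ± 4.77, SD, n = 3). CQD1 went from 20.9%, 35.8% and 26.5% to 6.93%, 8.13% and 5.71%, OM14 from 13.4%, 21.4% and 14.3% to 4.50%, 5.35% and 4.08%, and MRPL44 from 7.34%, 8.34% and 6.93% to 3.21%, 3.50% and 3.39%. The windows do not overlap in any of the 4 genes. With the ratio of unspliced to spliced reads taken as counted, all 4 fell by edgeR's test (Benjamini-Hochberg adjusted), as did 90.9% of the 275 introns tested (1.45% were higher, 92.4% either way), so a fall was the common case. CQD1 fell by 2.34 ± 0.30 on the log2 scale (SE, adjusted p = 2.03e-05), OM14 by 1.98 ± 0.30 (adjusted p = 5.7e-05), RIM1 by 1.63 ± 0.27 (adjusted p = 8.63e-05) and MRPL44 by 1.22 ± 0.21 (adjusted p = 0.000109), against a median intron of -1.52.

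Scaling turned or shrank these values. When unspliced and spliced reads were each scaled by TMM, which sets the median intron near 0 (0.01), MRPL44 stood at 0.31, RIM1 at -0.10, OM14 at -0.46 and CQD1 at -0.82, and none of the 4 passed (lowest adjusted p = 0.0669, edgeR). Over all introns that scaling left 14 lower and 33 higher, in place of 250 lower and 4 higher. CQD1 and OM14 lay below the median intron and MRPL44 above it. TMM moved these genes and the median by nearly the same amount, so their places around it were fixed in advance.

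An apparent lifetime of the unspliced RNA puts the courses on 1 scale in seconds. It is the inverse of the rate in a model with steady synthesis, no decay and no background, fitted to the unspliced share over all labelled times, and since it counts lariat intermediate as unspliced it spans both steps. RIM1 had 95.5, 154 and 93.6 s in courses 1, 2 and 3 (114 ± 34.1 s, SD, n = 3), CQD1 45.0, 62.8 and 48.5 s (52.1 ± 9.42 s), OM14 32.8, 32.6 and 33.0 s (32.8 ± 0.200 s) and MRPL44 20.9, 20.5 and 17.4 s (19.6 ± 1.91 s). The order RIM1, CQD1, OM14, MRPL44 held in each WT course, and no neighbours overlap. The prp2-1 course gave 124, 49.7, 28.5 and 9.72 s in the same order. Its times ran from 120 to 1320 s, where those of WT ran from 90 to 990 s. In prp2-1 the lifetimes of RIM1 and CQD1 lie within the WT range and those of OM14 and MRPL44 below it. In WT_30, fitted over 90 to 480 s, the order was reversed. There MRPL44 had 71.1 and 66.9 s in courses 1 and 2, OM14 47.3 and 59.1 s, CQD1 18.4 and 18.4 s and RIM1 12.9 and 12.2 s.

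RIM1 and CQD1 shared an irregularity between WT courses. At 390 s RIM1 was 9.82% unspliced in course 1 and 13.0% in course 3 but 39.5% in course 2, and at 540 s 10.5%, 16.1% and 39.0%. The libraries with low shares held many RIM1 reads per 1000000 yeast reads (RPM), with 1120 and 659.5 at 390 s in courses 1 and 3 against 353 in course 2. CQD1 was high in the same libraries, at 337 and 121 RPM against 61.0 in course 2, and its unspliced share was 5.52% and 7.77% against 18.4%. At 720 s course 3 alone was high, with 932 RIM1 and 194 CQD1 RPM against 229 and 288, and 60.01 and 56.2, in courses 1 and 2. What sets these libraries apart was not tested, and whether their labels are right could not be checked. From 150 s to 990 s alone, which leaves these libraries out, RIM1 fell by 1.86 on the log2 scale (adjusted p = 0.000783, edgeR) and CQD1 by 3.23 (adjusted p = 4.78e-05), and both also passed with any 1 course left out.

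In the prp2-1 course a smaller share of MRPL44's own reads was unspliced than in WT. Summed over 150 to 990 s its unspliced share was 1.98% (95% interval 1.87% to 2.10%), against 5.03%, 5.21% and 4.54% in WT courses 1, 2 and 3. OM14 had 4.77% (4.72% to 4.82%) against 7.47%, 7.66% and 6.66%, CQD1 9.25% (8.38% to 10.2%) against 11.9%, 16.4% and 11.2%, and RIM1 26.2% (25.1% to 27.4%) against 27.4%, 36.6% and 24.8%. In these sums the mutant lies below all WT courses in MRPL44, OM14 and CQD1 and among them in RIM1. By window, CQD1 lay among the WT courses both early (22.2% against 20.9% to 35.8%) and late (5.73% against 5.71% to 8.13%). OM14 lay among them early (13.5% against 13.4% to 21.4%) and below them late (3.54% against 4.08% to 5.35%). MRPL44 stayed below and RIM1 among them in both windows.

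By edgeR's quasi-likelihood test 1 of the 3 genes other than RIM1 passed. MRPL44 fell by 1.36 ± 0.31 on the log2 scale (SE, adjusted p = 0.0113), in a comparison where 30.7% of 283 introns were lower and 2.12% higher (32.9% in all). OM14 changed by -0.64 ± 0.30 (adjusted p = 0.104), close to the median intron at -0.62, and CQD1 by -0.55 ± 0.29 (adjusted p = 0.137), neither past the threshold. RIM1 had -0.22 ± 0.29, given without a test. The MRPL44 call was lost without WT course 2, without the 390 s and 540 s libraries, and with spliced reads taken from the authors' splicing index. Its log2 changes there were -1.31, -1.45 and -1.50, so the call depended on the setting more than the size of the change did. OM14 passed by DESeq2 (adjusted p = 0.0446) and without WT course 3 (adjusted p = 0.0493).

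WT_30 split the 4 genes. Over the shared times of 90, 120, 150 and 300 s, RIM1 was 7.57% and 7.78% unspliced in WT_30 courses 1 and 2 but 40.4%, 62.1% and 46.1% in the WT courses. CQD1 was 10.5% and 9.75% against 24.5%, 44.8% and 34.8%. MRPL44 went the other way, with 30.8% and 33.8% in WT_30 against 8.23%, 12.8% and 8.67%. OM14 had 19.5% and 27.6% against 14.4%, 22.2% and 15.97%. The series do not overlap in RIM1, CQD1 and MRPL44 and do in OM14.

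The log2 change from WT to WT_30 was -3.56 ± 0.34 (SE) in RIM1, a description since its high WT level chose it. CQD1 was lower by -2.19 ± 0.34 (adjusted p = 1.74e-05, edgeR's quasi-likelihood test), while MRPL44 was higher by 2.15 ± 0.30 (adjusted p = 3.92e-06). OM14 changed by 0.54 ± 0.32 and did not pass (adjusted p = 0.144). Calls were common in this comparison, with 28.2% of 284 introns lower and 37.7% higher (65.8% in all), and the median was 0.32. By unspliced share RIM1 ranked 31 of 276 introns in WT at these times and 183 of 282 in WT_30, MRPL44 163 in WT and 62 in WT_30, CQD1 50 and 159, and OM14 118 and 88.

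The spike-in differs between the series, so it cannot be told apart from the group, and carry-over differs too. Scaled by spike-in reads, the 0 s libraries accounted for 4.53% to 7.97% of RIM1 reads in WT at these times and for 14.6% and 31.9% in WT_30. With that background taken off, the unspliced share of RIM1 came to 52.1% ± 12.9 (SD, n = 3) for WT but 9.72% ± 1.15 (SD, n = 2) for WT_30, and that of MRPL44 10.7% ± 3.17 and 40.0% ± 2.95. OM14 had the largest carry-over, 51.8% and 35.9% in WT_30, and came to 20.2% ± 6.98 and 31.6% ± 6.37.

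Whether WT_30 lariat intermediates were counted as unspliced is not given in the sources used here, and no lariat counts of that series were used. At the shared times unspliced RIM1 reads other than lariat intermediate were 3.98% ± 0.310 of all RIM1 reads in WT (SD, n = 3). This lies below the unspliced share in both WT_30 courses, 7.57% and 7.78%. In CQD1 that class was 20.1% ± 4.87, above both WT_30 courses, and in OM14 9.70% ± 1.98 and MRPL44 9.84% ± 2.56, below them. The WT percentages keep lariat reads among all reads, which may not hold for the WT_30 shares. Across 281 introns the log2 change between WT_30 and WT and the lariat share in WT had a Spearman rho of -0.21 and a Pearson r of -0.24, with the WT libraries in both. The median log2 change was -0.46 in the 42 introns with a lariat share above 50% in WT, RIM1 among them. It was 0.78 in the 75 introns with a share below 5%, and 0.32 over all 284 introns tested. The introns between these shares were not summarized. The part of lariat reads in the difference between the series was not tested.

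Within WT_30 the windows lie at other times than in WT, so the changes of the series are not compared. RIM1 went from 7.36% and 11.5% in the early window (90, 120 and 150 s) to 6.53% and 3.72% in the late one (300, 360 and 480 s), CQD1 from 13.7% and 14.4% to 6.26% and 6.02%, MRPL44 from 30.7% and 37.9% to 27.0% and 22.2%, and OM14 from 18.8% and 28.4% to 20.9% and 21.4%. The windows of OM14 overlap, and those of the other genes do not. By edgeR's quasi-likelihood test 3 of the 4 genes fell, against 65.6% of 282 introns. CQD1 fell by 1.32 ± 0.16 on the log2 scale (SE, adjusted p = 0.00228), RIM1 by 0.97 ± 0.34 (adjusted p = 0.0344) and MRPL44 by 0.67 ± 0.22 (adjusted p = 0.0297), and OM14 changed by -0.18 ± 0.26 (adjusted p = 0.564), with a median intron of -0.73. With each read state scaled by TMM none of the 4 passed, and MRPL44 (0.03) and OM14 (0.53) turned positive, with 3 introns lower and 2 higher in place of 185 and 0. At 3600 s the shares were 1.74% and 1.59% in RIM1, 6.91% and 7.54% in CQD1, 7.61% and 7.76% in OM14 and 15.3% and 16.2% in MRPL44, so MRPL44 was still the highest of the 4.

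The authors' normalized signal of unspliced reads in WT_30 appears to be scaled with the 0 s level taken off. At 0 s it was 0 in course 2 of all 4 genes and 0 to 78 in course 1. It was higher at 3600 s than at 90 s in both courses of all 4 genes. For RIM1 it was 439 and 819 at 90 s and 10627 and 7823 at 3600 s in courses 1 and 2, and for MRPL44 959 and 1662 at 90 s and 14564 and 9757 at 3600 s. For OM14 it was 1068 and 1799 at 90 s and 19685 and 14077 at 3600 s, below the 25558 of course 1 at 480 s.

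**Figure D4:**
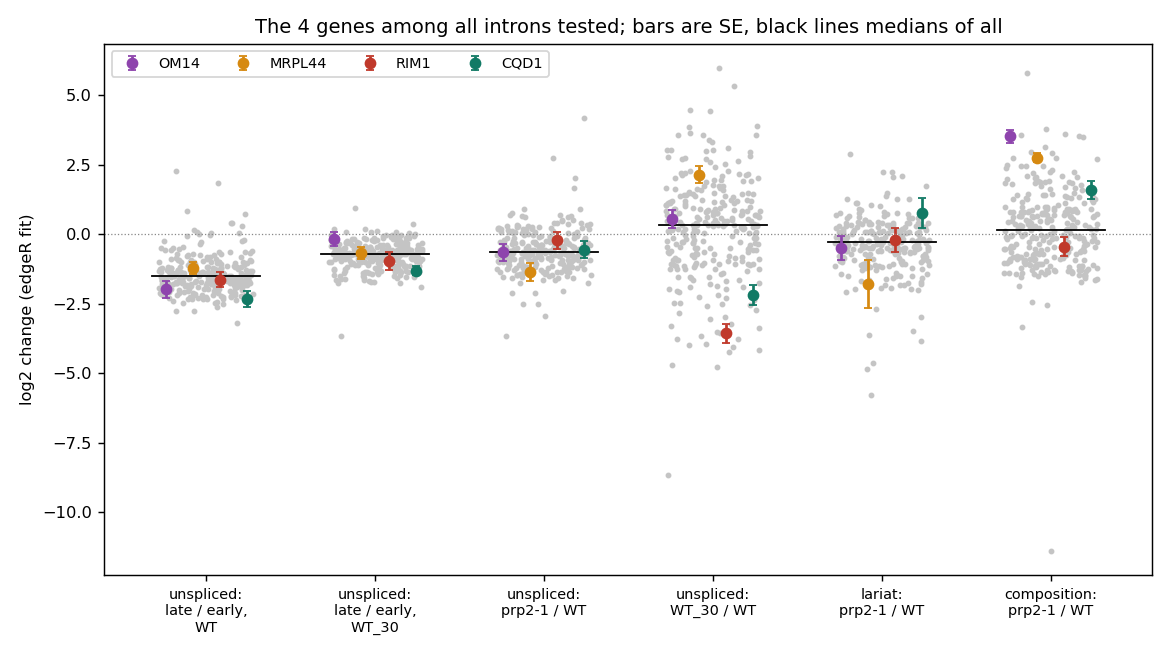
Log2 change (y axis, edgeR fit) in 6 comparisons; grey points are all introns tested, black lines their medians, coloured points the 4 genes with SE bars. RIM1 lies at -3.56 and MRPL44 at 2.15 in WT_30 against WT; in composition, prp2-1 against WT, OM14 lies at 3.52 with TMM scaling and at -0.78 with spike-in scaling, which is not drawn.

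Total reads of OM14 and MRPL44 took a far larger part of prp2-1 libraries than of WT libraries. Summed over 150 to 990 s OM14 made up 2868, 2355 and 3649 RPM in WT courses 1, 2 and 3 and 46976 in the prp2-1 course. MRPL44 made up 509, 462 and 502 against 4573, CQD1 83.7, 50.1 and 83.1 against 300.4, and RIM1 370, 333 and 556 against 427. OM14, MRPL44 and CQD1 lie above all WT courses and RIM1 among them. In the 18 prp2-1 libraries without an assigned time OM14 ran from 7586 to 107173 RPM (median 35543), and the highest of 30 WT libraries was 10452.

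By edgeR's quasi-likelihood test on all reads with TMM factors 3 of the 4 genes were higher, against 37% of 292 targets higher and 30.5% lower (67.5% in all, and 133 higher against 52 lower without TMM, in place of 108 and 89). OM14 rose by a log2 change of 3.52 ± 0.24 (SE, adjusted p = 0.000686), MRPL44 by 2.76 ± 0.15 (adjusted p = 0.000342) and CQD1 by 1.59 ± 0.33 (adjusted p = 0.0103), while RIM1 changed by -0.44 ± 0.34 (adjusted p = 0.300), with a median of 0.14. The direction turned when library size was set to the spike-in reads: the median target then stood at -4.15, OM14 at -0.78, MRPL44 at -1.54, CQD1 at -2.704 and RIM1 at -4.76. OM14, MRPL44 and CQD1 lay above the median target. The change of scale moved these genes and the median by nearly the same amount, so their places around it were fixed in advance. Per spike-in read OM14 gave 3.27, 2.97 and 5.07 reads in the WT courses and 2.19 in the prp2-1 course.

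The high share of OM14 was already present without label. At 0 s it was 14141 and 19929 RPM in prp2-1 courses 1 and 2, against 1765, 940 and 1346 in WT, and MRPL44 was 1291 and 1865 against 205, 238 and 199. RIM1 was 346 and 373 against 141, 139 and 210, from 11 and 14 reads in the shallow mutant libraries. The groups do not overlap at 0 s in these 3 genes. Less RNA from other targets and more from these genes cannot be told apart in shares of a library.

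**Figure D5:**
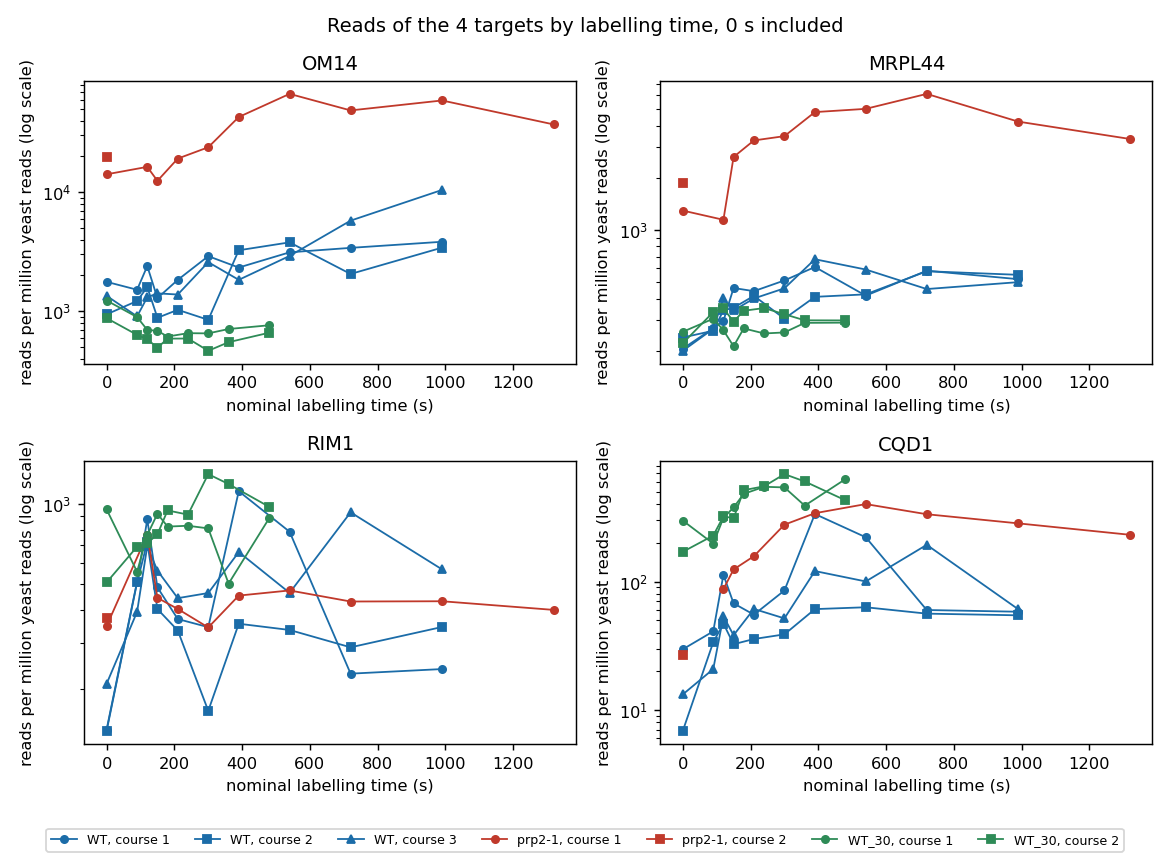
Reads per 1000000 yeast reads of each gene (y axis, log scale) by nominal labelling time (x axis, s), 0 s included; each point is 1 library, lines join a course, and the prp2-1 0 s library with 0 CQD1 reads and the 3600 s libraries are not drawn. OM14 and MRPL44 lie higher in every prp2-1 library drawn than in every WT library, while the 18 prp2-1 libraries without an assigned time are not drawn and reach down to 7586 and 471; per spike-in read, summed over 150 to 990 s, both are lower in prp2-1.

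Within WT the part taken by OM14 grew with labelling time, from 2067, 945 and 1919 RPM in the early window of courses 1, 2 and 3 to 3598, 3002 and 5952 in the late one. The windows do not overlap. It rose by a log2 change of 1.39 ± 0.33 (SE, adjusted p = 0.0387, edgeR's quasi-likelihood test), 1 of the 4 genes in a comparison where 3.82% of 288 targets were higher and 4.51% lower (8.33% in all). The call was lost without course 1 (adjusted p = 0.0817), without course 2 (adjusted p = 0.0794) and without the 990 s libraries (0.98, adjusted p = 0.105). MRPL44 changed by 0.39 ± 0.13 (adjusted p = 0.0715), CQD1 by 0.66 ± 0.30 (adjusted p = 0.176) and RIM1 by -0.02 ± 0.28 (adjusted p = 0.967). With the course as a block MRPL44 (adjusted p = 0.0108) and CQD1 (adjusted p = 0.00351) passed as well, among 136 targets in place of 24. Per spike-in read all 288 targets were higher late, with a median of 2.39, and RIM1 stood at 2.27.

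For comparison, 9 other nuclear genes of mitochondrial proteins with an intron were counted, a list made with earlier results of these data known. It was chosen by hand and does not hold every such gene among the targets, so its counts describe the listed genes alone. In WT late against early 8 of 9 unspliced shares fell, from COX4 (-2.19), a cytochrome c oxidase subunit, while MCR1, a cytochrome b5 reductase, had 0.08 and did not pass. In WT_30 late against early 6 of 9 fell, between QCR10 (-1.37), a subunit of complex III, and MCR1 (0.08). In prp2-1 against WT 2 of 9 were lower and 1 higher, with TMH18 at -1.08 and MCR1 at 1.68 as the ends, against -1.36 in MRPL44, a difference that was not tested. In WT_30 against WT 2 were lower and 5 higher, from ERV1 (-1.67), a sulfhydryl oxidase, to COI1 (1.64). Over all introns tested 90.9% fell in WT late against early and 65.6% in WT_30. In WT_30 against WT 28.2% were lower and 37.7% higher. Shares for prp2-1 against WT are given above.

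Lariat reads called 0 of 7 tested list genes late against early, between QCR9 (-0.94), another complex III subunit, and AIM11 (0.77), and 1 of 8 in prp2-1 against WT, MCR1 (2.90), with ERV1 (-0.56) at the other end. In composition 8 of 9 rose in prp2-1, from AIM11 (1.72) to QCR10 (2.96), with ERV1 (0.50) not past the threshold and a list median of 1.98 against 0.14 over all targets. This holds for TMM scaling, since spike-in scaling put nearly every target lower in prp2-1 (284 of 292). Within WT 1 of 9 was higher late, COX4 (0.71), with QCR9 (-0.74) as the lowest and TMH18 (0.89) as the highest change. Over all targets 3.82% were higher late, and lariat reads late against early called 0% of all introns. In prp2-1 against WT 37% of all targets were higher and 30.5% lower in composition with TMM. Lariat reads called 4.6% of all introns in that comparison.

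The introns most like each gene in the log2 ratio of unspliced to spliced reads over the 27 labelled WT libraries were named by the smallest root mean square difference among 274 others. OM14 was nearest to MMS2 (0.36), PBA1 (0.39) and TAF14 (0.40), MRPL44 to PAL2 (0.45), QCR9 (0.45) and GIM5 (0.46), RIM1 to YIP3 (0.64), KIN28 (0.66) and EFM5 intron 2 (0.74), and CQD1 to TDA5 (0.77) and YCL002C (0.81), in log2 units. The median difference to all introns was 1.83, 1.79, 2.83 and 2.17 in that order. In the log2 ratio of lariat to other unspliced reads RIM1 was nearest to RPS7A (1.03), RPL33B (1.40) and NOG2 (1.40), but its mean ratio of 3.53 exceeded theirs of 2.703, 2.35 and 2.25. The libraries share depth and labelling time, so these differences are a description.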

How the data were processed

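MPE-seq read counts of targeted introns were taken from 61 libraries with an assigned time (30 WT, 11 prp2-1, 20 WT_30); 18 prp2-1 columns could not be tied to a library title and were used only as ranges. The submitters' processing notes name STAR 2.7.2b and build R64; how reads were assigned to introns is not given in the sources used here. The deposited counts (all, unspliced, lariat intermediate and branch point to 3′ splice site reads) are whole numbers without scaling, as tested on the files. The authors' adjusted tables split unspliced reads into estimated counts before and after step 1. The deposited splicing index is a ratio, unspliced over spliced; total/(1 + index) was whole in 17362 of 17362 cells (tolerance 0.01), and the unspliced counts tested here are 73.0% (MRPL44) to 88.5% (CQD1) of the unspliced reads it implies, so spliced reads as used here (all less unspliced) include some of the rest. The authors' normalized signal of WT_30 appears to be scaled with the 0 s level removed. Of 23 tables, 6 without gene names were not used.

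Counts were summed per course over the windows given. edgeR 4.0.16 (R 4.3.3) was fitted to all introns as 2 columns per course, unspliced and spliced or lariat and other unspliced, with joint library sizes and the interaction tested by the quasi-likelihood test, adjusted by Benjamini-Hochberg at 0.05. Tests and ranks of unspliced reads took introns whose means reached 20 unspliced reads and 100 in total; those of lariat reads asked for 5 lariat reads beside the 20. Composition used all reads with TMM and a mean of 20. The prp2-1 course has no replicate and is assumed to vary like WT. A pseudocount of 0.5 reads entered the log ratios and lifetimes. Late and early windows of a course share a course number in the labels; the correlation of their deviations was 0.648, 0.374 and 0.618 in WT (unspliced), so the course as a block was an alternative; DESeq2 1.42.0, other scalings, filters and left-out courses were others. The scripts were tested on simulated data.

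The genes named are the 4 members, the highest and lowest of 9 other mitochondrial genes in each comparison, and the 3 nearest introns, of which 1 is not reported here. Members, lists and tests were chosen with earlier results of these data known. RPS7A, as next in lariat share, was named after its value was seen.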

Additional observations from a re-analysis of the deposited data

Results flagged for a closer look

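The part of OM14 in all reads moved in opposite directions over time in the series WT and WT_30. From the early to the late window RPM changed by a mean log2 of 1.37 in WT, higher in 3 of 3 courses (0.80, 1.67 and 1.63), and by -0.10 in WT_30, lower in 2 of 2 courses (-0.10 and -0.09). The windows cover other times in the 2 series, the WT_30 changes are small, and the difference was not tested.

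In the 18 prp2-1 libraries without an assigned time, which enter no comparison, OM14 had a median of 35543 RPM and MRPL44 a median of 2386, both above the highest WT library (10452 and 675). The lowest of the 18 were 7586 and 471 RPM, so not every one of them exceeds WT.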

How the results depend on the processing

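Depth limits CQD1 most, with 38 to 751 reads per labelled WT library, and the lariat reads of MRPL44, of which each WT course held 10 or fewer. The mutant is 1 course throughout.

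The number of introns called for unspliced reads late against early was 254 in WT (47 with TMM for each read state, 14 lower and 33 higher) and 185 in WT_30 (5 with TMM, 3 lower and 2 higher). With TMM, MRPL44 turned to 0.31 in WT and 0.0299 in WT_30 and OM14 to 0.53 in WT_30. For unspliced reads in prp2-1 against WT 93 were called, 57 with TMM, 11 with spliced reads from the splicing index, 23 without the 390 s and 540 s libraries, and 4 to 74 with 1 WT course left out, where RIM1 ran from -0.39 to 0.0144. For lariat reads late against early 0 were called, 1 with count minimums raised 5 times, 3 by DESeq2, 3 with TMM and 44 with the course as a replicate block; OM14 turned to 0.0190 with TMM and 0.0822 without reads ending past the branch point, and with 1 course left out ran from -0.32 to 0.11 and RIM1 from -0.24 to 0.44. For lariat reads in prp2-1 against WT 12 were called, 0 without a filter, 5 with raised minimums, 0 with TMM, 7 without reads ending past the branch point and 0 to 22 with 1 WT course left out; RIM1 turned to 0.0756 with TMM. In composition, prp2-1 against WT, 197 were called (89 lower, 108 higher), and without TMM 52 lower and 133 higher, with RIM1 at 0.0238. With spike-in library size 284 were lower and 1 higher, and OM14 (-0.78), MRPL44 (-1.54) and CQD1 (-2.70) reversed. In composition, late against early in WT, 24 were called, 68 by DESeq2, 288 with spike-in library size, 136 with the replicate block, 11 without the 990 s libraries and 0 to 56 with 1 course left out; RIM1 turned to 2.27 with spike-in library size and ran from -0.20 to 0.10 with 1 course left out. The cause was not tested in any of these.

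The course as a block, which pairs the windows of a course, changed no other call among the 4 genes. Late and early windows in WT_30, with 2 courses, correlated at only 0.112. Subtracting the mean 0 s RPM was planned and not run, since it would treat carry-over as a constant part of each library. Leaving out 1 of 2 WT_30 courses late against early leaves no residual degrees of freedom, and the prp2-1 course cannot be left out. Settings on libraries, the splicing index and spike-in scaling were chosen after seeing the data.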
